A study of Mus musculus with 14 samples.

Results

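Rcan1 lies inside the chromosome 16 segment that is triplicated in Dp(16)1Yey/+ mice, and it was described here with its paralogs Rcan2 and Rcan3, the calcineurin genes Ppp3ca, Ppp3cb and Ppp3r1, and the NFAT genes Nfatc1, Nfatc2, Nfatc3 and Nfatc4. These 10 genes were chosen by name, as 10 of the 20416 gene symbols that could be assigned to the 59796 loci of the gene table, and all 10 were matched to a locus and passed the filter on low values. RNA-seq had been done on embryonic hippocampus, dissected at embryonic day 16 to 18, in 14 libraries. There were 3 libraries of 189N3 mice, which carry an extra copy of Dyrk1a on a bacterial artificial chromosome and have the normal 2 copies of Rcan1, and 3 of their wild-type littermates. There were 4 libraries of Dp(16)1Yey/+ mice, heterozygous for a duplication of the segment from Lipi to Zbtb21 (Zfp295) and so with 3 copies of Rcan1 and of Dyrk1a, and 4 of their wild-type littermates. Both lines were crossed to C57BL6 in the breeding the methods describe for the cultures, and each model is a single transgenic or engineered line. The labels count 3 or 4 embryos for a genotype, which matches the libraries of a group, but they do not say which library came from which embryo. The p-values measure the spread between these libraries, which may be partly technical.

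Calcineurin is the phosphatase that calcium and calmodulin switch on. It is built of a catalytic subunit, encoded by Ppp3ca, Ppp3cb or the less widely used Ppp3cc, and a regulatory subunit that binds calcium, encoded by Ppp3r1 in most tissues and Ppp3r2 in testis. It dephosphorylates the NFAT transcription factors, which then enter the nucleus, and kinases such as the one encoded by Dyrk1a reverse that step. The RCAN proteins bind calcineurin and restrain it, and Rcan1 is itself a known NFAT target, so the genes form a feedback loop that is much studied in Down syndrome and in neurons.

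On the GRCm38 assembly (mm10) Rcan1 occupies chr16:92391953-92470867 on the minus strand, 16851439 bases into the duplicated segment, chr16:75540514-97962622. The gene has 2 well-known starts, an upstream one and an internal one whose transcript is known as the form induced by calcineurin and NFAT. The RefSeq promoter table (GRCm38.p6) holds both, at positions 92466169 and 92400078, which are 66091 bases apart. The windows are shown because they are the known starts of Rcan1, of which 1 holds the core letters of the NFAT motif; no isoform result uses them. Each runs from 250 bases before to 50 bases after the start and is written along the gene's strand. Capitals mark GGAAA, the core letters of the NFAT motif, and its reverse complement TTTCC, searched on both strands; overlapping matches would have been counted separately.
Rcan1 upstream start, chr16:92466120-92466419, minus strand: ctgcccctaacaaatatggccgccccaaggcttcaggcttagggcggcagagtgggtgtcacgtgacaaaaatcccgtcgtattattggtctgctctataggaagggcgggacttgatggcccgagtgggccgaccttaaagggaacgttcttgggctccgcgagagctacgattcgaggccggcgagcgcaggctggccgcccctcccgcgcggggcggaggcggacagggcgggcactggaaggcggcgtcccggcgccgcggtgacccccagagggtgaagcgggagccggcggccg
Rcan1 internal start, chr16:92400029-92400328, minus strand: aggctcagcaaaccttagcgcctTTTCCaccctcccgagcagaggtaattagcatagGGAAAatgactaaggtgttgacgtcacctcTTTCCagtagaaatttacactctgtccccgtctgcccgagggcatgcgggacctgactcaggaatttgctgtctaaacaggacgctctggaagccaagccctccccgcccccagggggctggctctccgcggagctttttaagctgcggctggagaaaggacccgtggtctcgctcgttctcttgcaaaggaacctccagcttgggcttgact
The upstream window held 0 matches. The internal window held 3, which began 227, 193 and 163 bases before the start. At least 1 match was present in 61.3% of the 32851 promoters of the table, and at least 3 in 9.42%. A match of 5 letters describes the sequence and is not a binding site.

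Levels are given as normalized fragments, the read pairs of a locus scaled by a size factor of the library. The libraries held between 20809135 and 29098454 fragments. The 4 littermate libraries of the Dp(16)1Yey/+ model stood as a pair of pairs. The squared difference over counting noise was 1.65 between replicates 0 and 1 and 2.0 between replicates 2 and 3. Between libraries of different pairs it was 31.3 to 36.3. Whether the libraries of a pair came from 1 sample is not given in the sources used here; if they did, the littermates number 2 and not 4. This split ran through the members. Replicates 2 and 3 exceeded replicates 0 and 1 by 2.12-fold for Rcan1, 2.15-fold for Rcan3 and 1.64-fold for Ppp3ca, and stood at 0.694 times their level for Nfatc4. Between the same pairs the summed level of 6 striatum markers was 591 and 621 against 1766 and 1769, the summed level of 4 hippocampus markers 10862 and 10358 against 4555 and 5143, and that of 5 neuron markers 73711 and 73679 against 103772 and 103836. The summed level of 4 choroid plexus markers was 1750 and 1700 against 154 and 401, and it ran from 154 to 14016 over the 14 libraries. The part of tissue composition in the members' spread was not tested, and in bulk tissue fewer cells of a type and less RNA per cell cannot be told apart. Neuron and hippocampus markers were present in every library, as the tissue label requires. The library of Dp(16)1Yey/+ replicate 1 also had a high summed level of erythroid markers (48387, against 6139 to 22458 in the other Dp(16)1Yey/+ libraries) and of muscle markers (417, against 20.8 to 83.5). It was likewise the highest of its group for skin (494, against 228 to 268) and choroid plexus markers (2500, against 181 to 711). For hippocampus markers it was the lowest (3387, against 3751 to 10202). In the 189N3 comparison the summed erythroid markers were lower in the carriers (13859 to 22137) than in the littermates (33789 to 54237), and the muscle markers stood at 64.3 to 88.2 against 106 to 251; each of the 5 erythroid genes had an unadjusted p under 0.05 there. The 4 skin markers tested were also lower in 189N3 mice, each with an unadjusted p under 0.05 (median −1.52). The sums over all 5 listed skin markers were 226 to 295 in the carriers and 504, 293 and 2202 in littermate replicates 0, 1 and 2. The part of these markers in the results below was not tested.

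The calcineurin subunits were the most abundant members per length and the NFAT genes the least. With values divided by the length of the annotated exons of each gene, the mean over 14 libraries was 777 normalized fragments per kb for Ppp3r1, 490 for Ppp3cb and 319 for Ppp3ca. Rcan1 followed at 273, Rcan2 at 180 and Rcan3 at 141. Nfatc3, at 81.7 per kb, was the leading NFAT gene of the members, ahead of Nfatc4 at 26.7, Nfatc1 at 5.55 and Nfatc2 at 3.03. Most neighbours in this order kept it within libraries: Ppp3r1 stood above Ppp3cb, Ppp3cb above Ppp3ca, Nfatc3 above Nfatc4 and Nfatc4 above Nfatc1 in 14 of 14 libraries. Rcan3 stood above Nfatc3, and Nfatc1 above Nfatc2, in 13 of 14. The order was less even around Rcan1, since Ppp3ca exceeded Rcan1 in 11 of 14 libraries, Rcan1 exceeded Rcan2 in 12 and Rcan2 exceeded Rcan3 in 12. With the longest annotated transcript as the length, Ppp3cb (1126 per kb) passed Ppp3r1 (877), and Nfatc3 (160) passed Rcan3 (141), so these neighbours depend on the length used. Nfatc1 and Nfatc2 rest on 27 to 66 and 21 to 48 recovered fragments per library.

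The first question was whether the extra copy of Rcan1 showed in its RNA. Rcan1 stood at 1561, 646, 915 and 834 normalized fragments in Dp(16)1Yey/+ replicates 0, 1, 2 and 3. In their wild-type littermates it stood at 489, 519, 1087 and 1046. The groups overlapped: replicate 0 of Dp(16)1Yey/+ was above all 4 littermates, and replicates 1, 2 and 3 lay between the littermate pairs. The means were 989 ± 398 (SD, n = 4) and 785 ± 325 (SD, n = 4), and the difference on the log2(value + 1) scale was 0.35 (SE 0.33, 95% interval −0.37 to 1.07, limma adjusted p = 0.909). That interval holds both 0 and 0.58, the log2 of 3 copies over 2, so at this spread no change and a change in proportion to copy number could not be distinguished. Leaving out 1 library at a time moved the difference between 0.11 (without Dp(16)1Yey/+ replicate 0) and 0.54 (without littermate replicate 2). With the nearly alike littermates averaged to 2 samples it was 0.35 (limma adjusted p = 1.00).

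**Figure D1:**
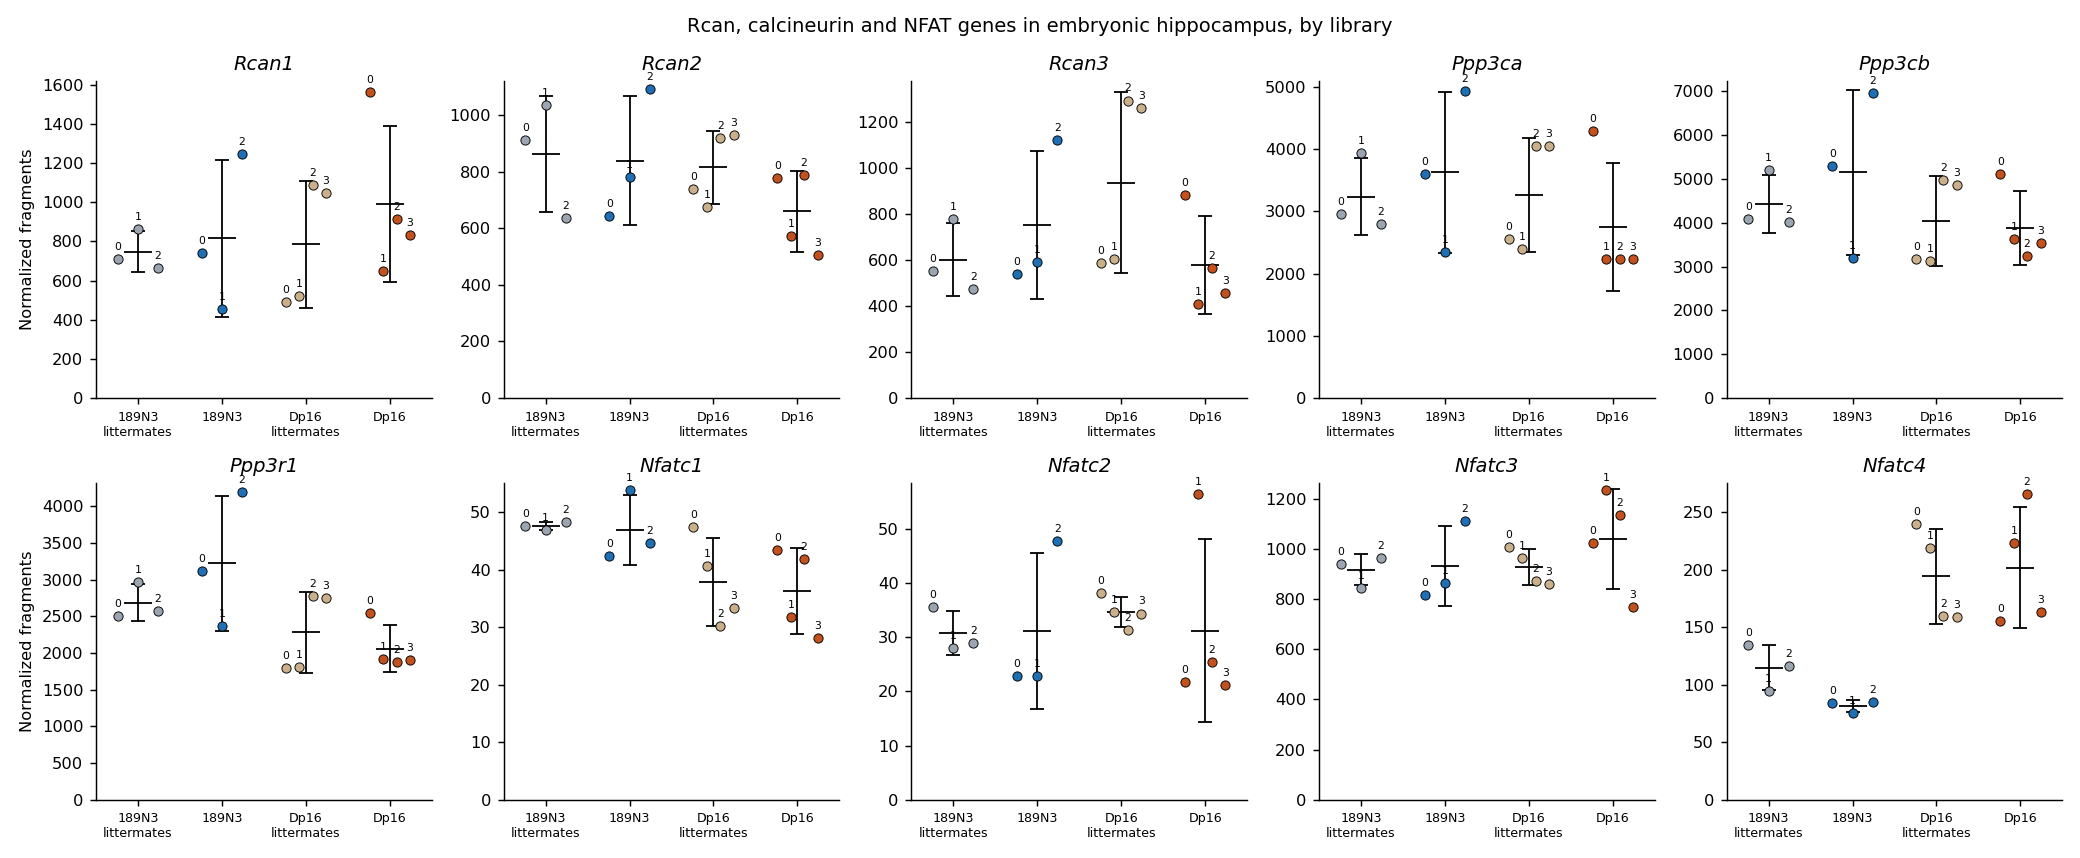
Normalized fragments of the 10 members in each library, by group; the horizontal axis gives the wild-type littermates and carriers of each model (Dp16 stands for Dp(16)1Yey/+), points are libraries with their replicate number, and bars are the mean with SD (n = 3 or n = 4). Rcan1 runs from 646 to 1561 in Dp(16)1Yey/+ libraries and from 489 to 1087 in their littermates, where replicates 0 and 1 sit apart from replicates 2 and 3 in Rcan1, Rcan3 and the calcineurin subunits.

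Genes around Rcan1 in the duplicated segment gave a yardstick, as they carry the same extra copy. Of 26 listed neighbours, 22 could be tested, and their median log2 difference in Dp(16)1Yey/+ was 0.42, beside a median of 0.03 over all 36024 loci tested. In this list 20 of 22 were higher, against 54.9% of all loci, and 8 had all 4 Dp(16)1Yey/+ libraries above all 4 littermates, against 1.72%. None of the 22 reached an adjusted p of 0.05 in limma, and 10 had an unadjusted p under 0.05 with higher values, against 1.71% of all loci. The 10 were Tmem50b (0.87, SE 0.15), Dnajc28 (0.79, SE 0.15), Cryzl1 (0.74, SE 0.15), Ttc3 (0.62, SE 0.15), Chaf1b, Smim11, Son, Atp5o, Donson and Morc3 (0.43, SE 0.15). Kcne2 had the highest value of the list (2.06, SE 1.00) with low counts, at means of 28.9 against 11.1 normalized fragments. Clic6 had the lowest (−0.23, SE 0.53), at means of 65.1 against 81.1. Rcan1, at 0.35, was below the median of its neighbours.

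The comparison can also be read library by library, against the mean of the littermates on the log2 scale. The median of the 22 neighbours stood at 0.73, 0.22, 0.63 and 0.41 in Dp(16)1Yey/+ replicates 0 to 3 and between −0.09 and 0.10 in the littermates. Rcan1 stood at 1.09, −0.18, 0.32 and 0.19 in the same Dp(16)1Yey/+ libraries and between −0.58 and 0.57 in the littermates. A median over 22 genes spreads less than a single gene, so these ranges do not set Rcan1 apart from its neighbours; gene by gene, 8 of the 22 had groups that did not overlap with the carriers above. Replicate 1, lowest for Rcan1, was also lowest for the neighbours.

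**Figure D2:**
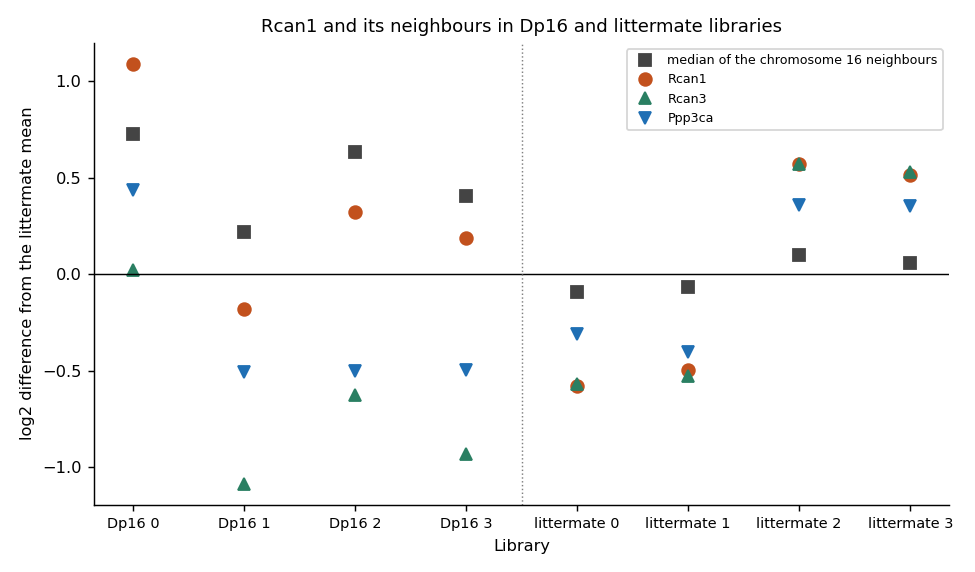
Log2 difference of each Dp(16)1Yey/+ (Dp16) and wild-type littermate library from the mean of the littermates, for the median of 22 chromosome 16 neighbours (squares), Rcan1 (circles), Rcan3 and Ppp3ca (triangles). The squares lie between 0.22 and 0.73 in Dp(16)1Yey/+ and between −0.09 and 0.10 in the littermates; Rcan1 lies between −0.18 and 1.09 and between −0.58 and 0.57. A median over 22 genes spreads less than a single gene.

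In 189N3 mice, which have no extra copy of Rcan1, the gene stood at 743, 455 and 1248 normalized fragments in replicates 0, 1 and 2. The littermates stood at 712, 865 and 663, inside the range of the 189N3 libraries. The log2 difference was 0.02 (SE 0.31, 95% interval −0.66 to 0.69, limma adjusted p = 1.00). Rcan1 differed between the models by 0.34 (SE 0.52, limma adjusted p = 0.922 for the interaction), which is within the error.

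Rcan2 and Rcan3, the paralogs outside the duplication, encode calcineurin-binding proteins of the same family. Rcan3 stood at 883, 410, 565 and 457 normalized fragments in Dp(16)1Yey/+ replicates 0 to 3 and at 586, 604, 1293 and 1260 in their littermates. Thus 3 of the 4 carriers were below every littermate, and replicate 0 was between the littermate pairs. The log2 difference was −0.65 (SE 0.32, 95% interval −1.36 to 0.05, limma adjusted p = 0.909), and without a library it ranged from −0.88 to −0.47. In 189N3 mice Rcan3 stood at 541, 590 and 1121 against 552, 780 and 472 (log2 difference 0.27, SE 0.30). The interaction was −0.93 (SE 0.49, limma adjusted p = 0.922). Rcan2 ranged from 505 to 788 in Dp(16)1Yey/+ and from 674 to 929 in the littermates (log2 difference −0.32, SE 0.20, limma adjusted p = 0.909), and in 189N3 mice the difference was −0.04 (SE 0.27). Its interaction was −0.27 (SE 0.33).

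For the calcineurin subunits the spread between libraries of a group was wider than the difference between genotypes. Ppp3ca, a catalytic subunit of brain, stood at 4284, 2226, 2239 and 2240 normalized fragments in Dp(16)1Yey/+ replicates 0 to 3 and at 2553, 2396, 4055 and 4050 in the littermates. Replicate 0 was thus far above the other 3 carriers, which were all below the 4 littermates. The log2 difference was −0.27 (SE 0.26, 95% interval −0.84 to 0.30). Ppp3cb, the other catalytic subunit of brain, ranged from 3237 to 5110 against 3117 to 4980 (−0.05, SE 0.21), and Ppp3r1, the regulatory subunit, from 1879 to 2543 against 1791 to 2772 (−0.13, SE 0.20). In 189N3 mice the corresponding differences were 0.12 (SE 0.28), 0.16 (SE 0.28) and 0.23 (SE 0.25), with replicate 2 the highest and replicate 1 the lowest 189N3 library for each subunit. The neuron marker sums of 189N3 replicates 0, 1 and 2 were 114894, 97845 and 153033, and their part was not tested. Ppp3cc, the remaining catalytic gene, ranged from 166 to 225 against 168 to 289 in the Dp(16)1Yey/+ comparison (−0.23, SE 0.21) and from 261 to 468 against 295 to 397 in the 189N3 comparison (−0.03, SE 0.28). Ppp3r2 was at 15.2 to 22.0 in 189N3 and 6.04 to 17.1 in their littermates (log2 difference 1.00, SE 0.43, unadjusted p = 0.0340, limma adjusted p = 1.00). It was below the filter in the Dp(16)1Yey/+ comparison, and its 189N3 values rest on 5 to 27 fragments per library.

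Rcan1 was also set against calcineurin within each library, which removes what raises or lowers both. Rcan1 amounted to 13.1%, 8.33%, 12.4% and 10.9% of the summed Ppp3ca, Ppp3cb and Ppp3r1 in Dp(16)1Yey/+ replicates 0 to 3. In the littermates it amounted to 6.50%, 7.08%, 9.21% and 8.96%. Dp(16)1Yey/+ replicates 0, 2 and 3 were above all littermates and replicate 1 lay between the littermate pairs. The mean log2 ratio was −3.18 ± 0.29 (SD, n = 4) against −3.67 ± 0.25 (SD, n = 4), a difference of 0.49 (exact two-sided permutation p = 0.0857, and 0.171 adjusted over the 2 models). With 1 library left out at a time the difference ranged from 0.40 (without littermate replicate 0, exact permutation p = 0.171) to 0.62 (without Dp(16)1Yey/+ replicate 1, exact permutation p = 0.0571), where 0.0571 is the smallest p possible. With the nearly alike littermates averaged to 2 samples the exact p was 0.267, where the smallest possible was 0.133.

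Against Ppp3ca alone, the subunit with the lowest difference (−0.27, against −0.05 for Ppp3cb and −0.13 for Ppp3r1), the groups did not overlap. Ratios to Ppp3cb or Ppp3r1 alone were not tested, and in both the groups overlapped. In Dp(16)1Yey/+ replicate 1 Rcan1 stood at 646, beside 3623 for Ppp3cb and 1912 for Ppp3r1. In littermate replicate 2 it stood at 1087, beside 4980 and 2772. Rcan1 stood at 36.4%, 29.0%, 40.9% and 37.2% of Ppp3ca in Dp(16)1Yey/+ and at 19.2%, 21.6%, 26.8% and 25.8% in the littermates. A ratio to Ppp3ca that did not overlap between the groups was found for 0.908% of the 36024 loci tested, and one with all carriers above for 0.572%. The log2 ratio differed by 0.62 (exact two-sided permutation p = 0.0286, the smallest possible for 4 against 4 libraries, and 0.0571 when adjusted). Averaging the nearly alike littermates leaves this mean difference as it is by construction, and the exact p was then 0.133, the smallest that 4 against 2 samples allow. On the log2 scale this is the difference of 0.35 in Rcan1 set against that of −0.27 in Ppp3ca, neither of which passed its own test. In 189N3 mice Rcan1 amounted to 6.19%, 5.75% and 7.76% of the calcineurin sum, against 7.45%, 7.15% and 7.08% in the littermates. The log2 ratio differed by −0.15 (exact two-sided permutation p = 0.40, n = 3 against n = 3).

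**Figure D3:**
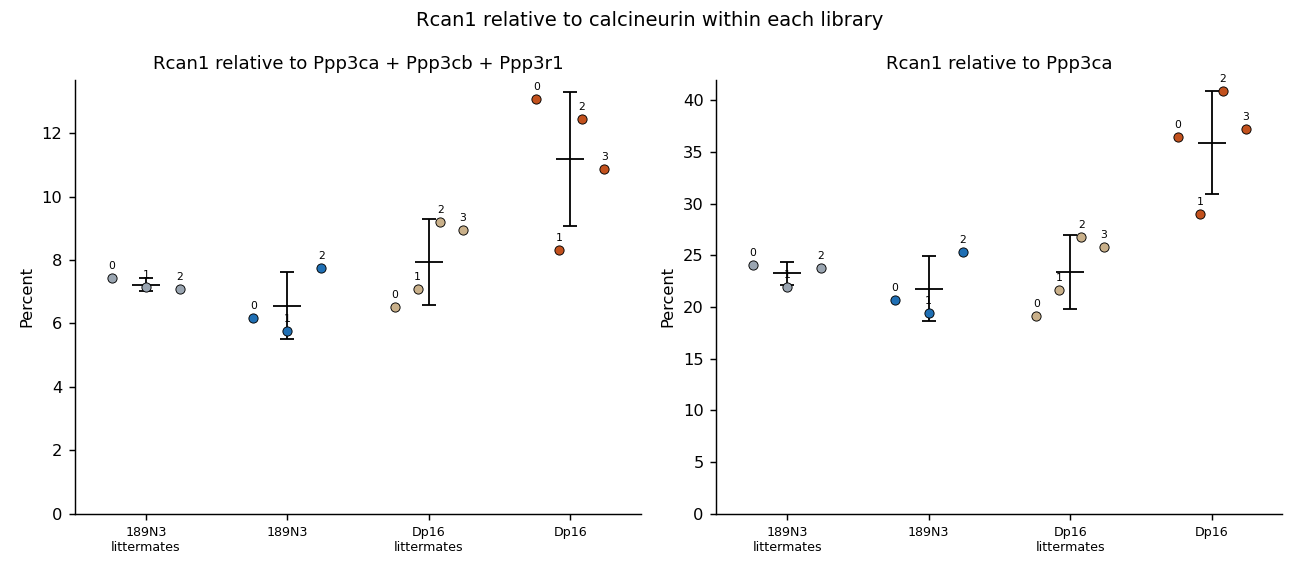
Rcan1 as a percentage of the summed calcineurin subunits (left) and of Ppp3ca (right) in each library by group; Dp16 stands for Dp(16)1Yey/+, points are libraries with their replicate number, and bars are the mean with SD (n = 3 or n = 4). On the right, Dp(16)1Yey/+ libraries lie between 29.0% and 40.9% and their littermates between 19.2% and 26.8%; on the left, replicate 1 of Dp(16)1Yey/+ (8.33%) lies within the littermates.

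The NFAT genes, which encode the transcription factors that calcineurin activates, held 1 gene with non-overlapping groups, Nfatc4 in 189N3 mice. An antisense transcript is mapped at Nfatc4, as at Ppp3ca and Ppp3cb, and whether the counting told the strands apart is not given in the sources used here. Nfatc4 stood at 83.8, 75.9 and 85.1 normalized fragments in 189N3 replicates 0, 1 and 2 and at 134, 94.8 and 116 in their littermates. All 3 carriers were below all 3 littermates, as was the case for 2.99% of the 35899 loci tested. The means were 81.6 ± 5.0 (SD, n = 3) and 115 ± 20 (SD, n = 3), and the log2 difference was −0.48 (SE 0.26, 95% interval −1.02 to 0.07, limma adjusted p = 1.00). The exact two-sided permutation p was 0.10, the smallest possible for 3 against 3. In Dp(16)1Yey/+ mice Nfatc4 ranged from 155 to 266 and in their littermates from 159 to 240 (0.04, SE 0.23), and the interaction was 0.52 (SE 0.32, limma adjusted p = 0.922). The littermates of the Dp(16)1Yey/+ model were all above those of the 189N3 model for Nfatc4, as were 14.7% of 36047 loci, so the sets of libraries differ apart from genotype.

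Nfatc3 had the highest level of the NFAT genes among the members. It ranged from 768 to 1234 in Dp(16)1Yey/+ and from 861 to 1010 in the littermates (0.15, SE 0.17). The difference in 189N3 mice was 0.01 (SE 0.23). Nfatc1 ranged from 28.2 to 53.8 over the 14 libraries, with differences of −0.03 (SE 0.27) in 189N3 and −0.06 (SE 0.24) in Dp(16)1Yey/+. Nfatc2 ranged from 21.1 to 56.4, with differences of −0.07 (SE 0.35) and −0.26 (SE 0.31). The 95% intervals ran from −0.61 to 0.55 for Nfatc1 in 189N3 and from −0.94 to 0.41 for Nfatc2 in Dp(16)1Yey/+. Replicate 1 of Dp(16)1Yey/+, the library with the high erythroid and muscle sums, held the highest Nfatc2 value (56.4) and also the highest Nfatc3 value (1234). Nfat5, the related factor that responds to salt stress and not to calcineurin, ranged from 1316 to 2026 (−0.04, SE 0.23, and 0.07, SE 0.18).

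Over the members together, 0 of 10 reached an adjusted p of 0.05 in limma in either model or in the interaction, and 0 of 10 had an unadjusted p under 0.05. No locus of the whole table passed in these fits (0% of 35899, 36024 and 36045 loci), and an unadjusted p under 0.05 was found for 1.87%, 3.53% and 2.66% of them (672, 1273 and 957 loci). On the recovered fragments edgeR called 0 loci in either model, and DESeq2 called 15 in 189N3 and 8 in Dp(16)1Yey/+, none of them a member. The median log2 difference of the 10 was 0.01 in 189N3 mice and −0.09 in Dp(16)1Yey/+ mice, beside medians of −0.04 and 0.03 over all loci tested. Of the 10 members 3 were higher and 7 lower in Dp(16)1Yey/+, with Rcan1 and Nfatc3 the highest (2.45% of the loci had non-overlapping groups in that comparison, and no member did; in 189N3 1 member did, against 4.98%).

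**Figure D4:**
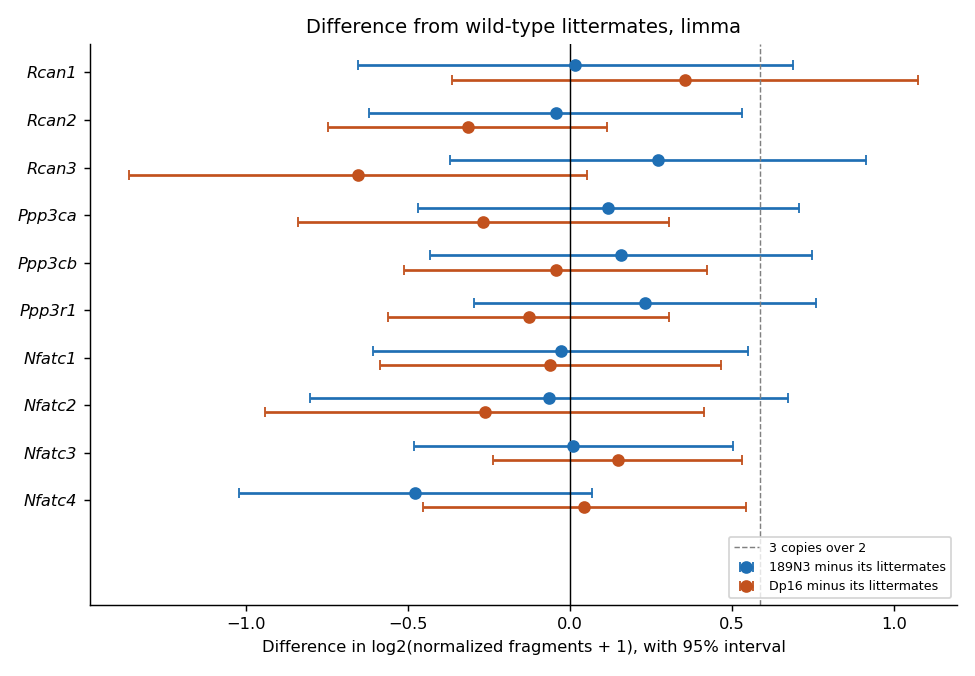
Difference of each model from its wild-type littermates for the 10 members, on the log2(value + 1) scale with 95% intervals from limma; Dp16 stands for Dp(16)1Yey/+, and the dashed line marks 0.58, the log2 of 3 copies over 2. All 20 intervals include 0; that of Rcan1 in Dp(16)1Yey/+ runs from −0.37 to 1.07.

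Isoform values gave a second view of Rcan1. The isoform table divides the fragments of the locus between a pair of assembled transcripts, uc007zzd.2 and uc007zze.2, by estimation. Which of the starts shown above each one uses is not given in the sources used here. In 189N3 mice uc007zzd.2 stood at 192, 154 and 171 normalized fragments, against 358, 477 and 225 in the littermates. All 3 carriers were below all 3 littermates, as for 3.65% of the 60141 isoforms tested. The log2 difference was −0.97 (SE 0.31, unadjusted p = 0.0202, limma adjusted p = 1.00), and −1.26 to −0.72 with 1 library left out. The other isoform, uc007zze.2, stood at 551, 302 and 1077 against 354, 389 and 438 (0.52, SE 0.46), so the groups overlapped. Its difference was 0.055 without 189N3 replicate 2 and 0.97 without 189N3 replicate 1.

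As a share of Rcan1, uc007zze.2 took 74.1%, 66.2% and 86.3% in 189N3 libraries and 49.7%, 44.9% and 66.1% in their littermates. The lowest 189N3 share and the highest littermate share nearly touched. The means were 75.6% ± 10.1 (SD, n = 3) and 53.6% ± 11.1 (SD, n = 3), a difference of 22.0 percentage points (exact two-sided permutation p = 0.10, the smallest possible for 3 against 3, and 0.20 adjusted). In Dp(16)1Yey/+ the shares were 66.0%, 66.5%, 49.997% and 59.9%, and in the littermates 55.0%, 33.2%, 68.8% and 73.2%. The means of 60.6% ± 7.7 (SD, n = 4) and 57.5% ± 17.98 (SD, n = 4) differed by 3.05 percentage points (exact two-sided permutation p = 0.80). Both Rcan1 isoforms had positive log2 differences in Dp(16)1Yey/+, 0.32 (SE 0.30) for uc007zzd.2 and 0.48 (SE 0.54) for uc007zze.2, with overlapping groups. The first ranged from 0.14 (without Dp(16)1Yey/+ replicate 0) to 0.57 (without Dp(16)1Yey/+ replicate 1), and the second from 0.073 (without littermate replicate 1) to 0.79 (without littermate replicate 3).

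**Figure D5:**
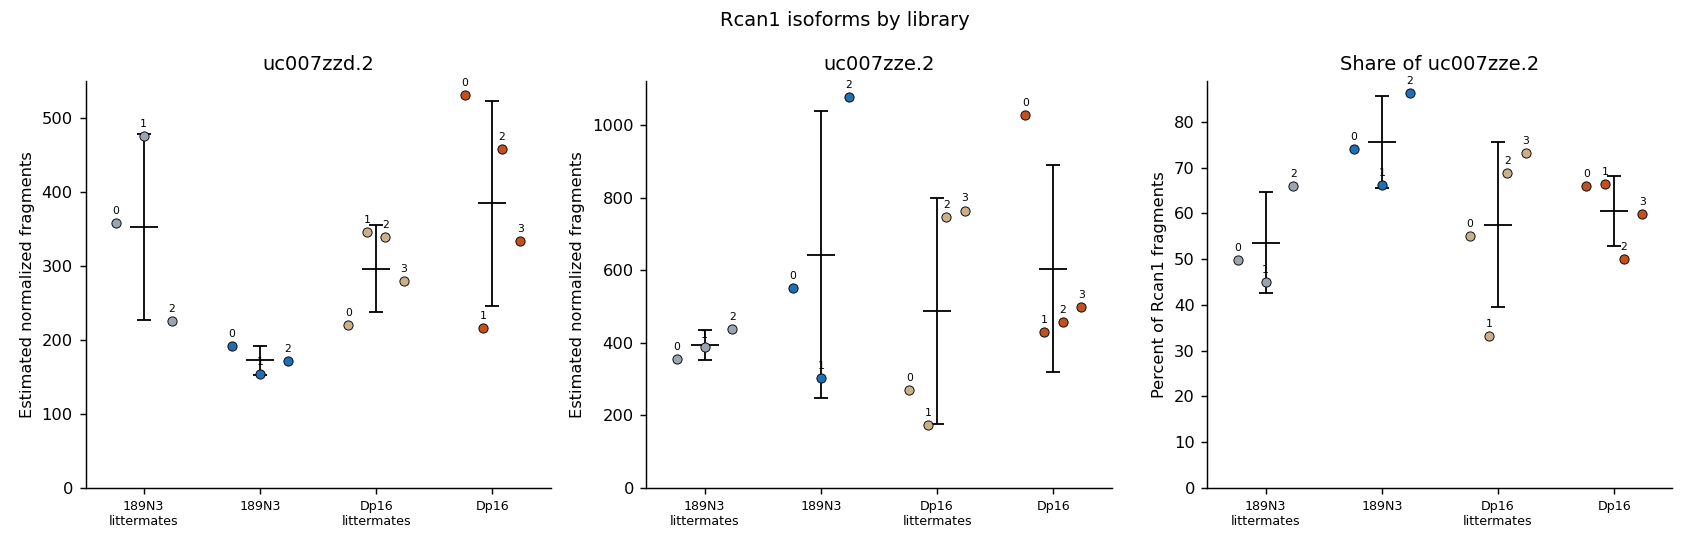
Estimated normalized fragments of the Rcan1 isoforms uc007zzd.2 (left) and uc007zze.2 (middle), and uc007zze.2 as a percentage of Rcan1 (right), in each library by group; Dp16 stands for Dp(16)1Yey/+, and bars are the mean with SD (n = 3 or n = 4). In 189N3 mice uc007zzd.2 lies between 154 and 192, below its littermates at 225 to 477, and the share of uc007zze.2 lies between 66.2% and 86.3%, against 44.9% to 66.1%.

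The members had 59 assembled isoforms, of which 27 could be tested in 189N3 mice and 28 in Dp(16)1Yey/+ mice. None reached an adjusted p of 0.05, as 22 isoforms of the whole table did in 189N3 (0.0366%) and 13 in Dp(16)1Yey/+ (0.0214%). In 189N3 mice 3 had an unadjusted p under 0.05, against 2.56% of all isoforms, and in Dp(16)1Yey/+ 1, against 3.48%. The first was uc007zzd.2 of Rcan1. The second was uc011zlq.1, the main isoform of Nfatc4, at 76.3, 68.4 and 56.4 against 112, 88.7 and 108 (−0.61, SE 0.24), which follows the gene. The third was a minor isoform of Rcan2 matched to uc008cpo.1, listed at or near 0 in 189N3 replicates 0 and 1, at 33.2 in replicate 2 and at 60.4, 54.4 and 70.2 in the littermates. The same isoform was at or near 0 in 5 of the 8 libraries of the Dp(16)1Yey/+ comparison, in both genotypes. Another assembled isoform of Rcan2 was also matched to uc008cpo.1. It stood at 159, 153 and 199 in 189N3 replicates 0, 1 and 2, against 100, 312 and 78.2 in the littermates (log2 difference 0.32, SE 0.53). The isoform uc007sjz.2 of Ppp3cb stood at 450, 490, 451 and 457 against 416, 355, 349 and 342 in the Dp(16)1Yey/+ comparison. All 4 carriers were above all 4 littermates, as for 1.42% of the 60652 isoforms tested, and the log2 difference was 0.34 (SE 0.13, unadjusted p = 0.0273, limma adjusted p = 0.945). It is a minor isoform of Ppp3cb, whose total differed by −0.05.

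Genes on either side of the pathway were listed by role. The input that raises calcium and calmodulin (10 genes) had a median log2 difference of 0.14 in 189N3 and −0.23 in Dp(16)1Yey/+, with 7 and 2 genes higher. Itpr1, the receptor that releases calcium from the endoplasmic reticulum, stood highest in 189N3 (0.60, SE 0.22, unadjusted p = 0.0153, limma adjusted p = 1.00). All 3 carriers were above all 3 littermates for Itpr1, Cacna1c and Stim1, 3 of the 10 genes, against 1.99% of loci. Itpr1 was also the highest in Dp(16)1Yey/+ (0.11, SE 0.29). The lowest values were those of Orai1, a calcium channel of the plasma membrane, in 189N3 (−0.08, SE 0.26), and of Ryr2, another calcium release channel, in Dp(16)1Yey/+ (−0.70, SE 0.32).

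A list of 6 genes tied to calcineurin (Akap5, Cabin1, Chp1, Fkbp1a, Ppia and Ppp1r1a) had medians of 0.07 and −0.17. Cabin1, an inhibitor of calcineurin, was lowest in Dp(16)1Yey/+ (990 ± 228 against 1347 ± 264, SD, n = 4 each; −0.45, SE 0.20, unadjusted p = 0.0457, limma adjusted p = 0.909). Ppia, which encodes the target of cyclosporin, was highest there (0.15, SE 0.24) and lowest in 189N3 (−0.09, SE 0.26), where Akap5, a calcineurin anchor at synapses, was highest (0.17, SE 0.31).

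Kinases and other proteins that return NFAT to the cytoplasm (14 genes) had medians of 0.16 and −0.10, with 12 and 4 genes higher, against 43.8% and 54.9% of all loci. Dyrk1a, carried by the transgene of 189N3 mice, was highest there (4688 ± 1042 against 2517 ± 430, SD, n = 3 each; 0.89, SE 0.24, unadjusted p = 0.00219, limma adjusted p = 1.00). All 3 carriers were above all 3 littermates, as for 1.99% of the 35899 loci tested. Dyrk1a also has an extra copy in the other model, where it stood at 3387 ± 1111 against 2808 ± 424 (SD, n = 4 each) with overlapping groups (log2 difference 0.22, SE 0.23, unadjusted p = 0.358, limma adjusted p = 0.909). Lrrk2 was lowest in 189N3 (−0.10, SE 0.27). The extremes in Dp(16)1Yey/+ were Mapk8, the kinase JNK1 (0.30, SE 0.15), and Csnk1d, a casein kinase (−0.30, SE 0.21).

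Calcineurin substrates other than NFAT (10 genes tested of 11) had medians of 0.27 in 189N3, with 9 higher, and −0.30 in Dp(16)1Yey/+, with 2 higher. Mef2c, a transcription factor of neurons, was highest in both (189N3 0.77, SE 0.33, unadjusted p = 0.0340, limma adjusted p = 1.00; Dp(16)1Yey/+ 0.38, SE 0.50). The lowest were Bad, a regulator of apoptosis, in 189N3 (−0.16, SE 0.27) and Dnm1, the dynamin of synaptic vesicle recycling, in Dp(16)1Yey/+ (−0.94, SE 0.59). Genes known to respond to NFAT in other cells (5 tested of 6) had medians of 0.25 and −0.31. Here Itpr1 was again highest in 189N3 and Bdnf, a neurotrophin, lowest (−0.13, SE 0.30). Egr3, an immediate early gene, was lowest in Dp(16)1Yey/+ (16.8 ± 12.3 against 57.2 ± 39.4, SD, n = 4 each; −1.69, SE 0.61, unadjusted p = 0.0171, limma adjusted p = 0.909) and its relative Egr2 highest (0.40, SE 0.34). No gene of these lists reached an adjusted p of 0.05 in limma in either model, and the medians of all 5 lists were above that of all loci in 189N3 and below it in Dp(16)1Yey/+. The striatum markers moved in the same directions, with a median of 0.29 in 189N3 (5 of 6 higher) and −0.45 in Dp(16)1Yey/+ (5 of 6 lower). So did the hippocampus (0.01 and −0.34, 4 of 4 lower in Dp(16)1Yey/+), endothelium (0.04 and −0.45), microglia (0.03 and −0.17) and choroid plexus markers (0.16 and −0.17). The neuron median was above that of all loci in both models (0.16 and 0.05). Erythroid (−1.35 and 1.25), skin (−1.52 and 0.23) and muscle markers (−1.24 and 1.17) went the opposite way. The pattern was thus not particular to the 5 lists, and the part of these markers in the list medians was not tested. Among the neighbours of Rcan1 in 189N3, Dyrk1a was the highest and Runx1 the lowest (−0.45, SE 0.36), with a median of 0.03 over the 22 genes.

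The genes whose levels followed Rcan1 most closely over the 14 libraries were, among 11253 named genes with a mean of at least 100, Jakmip1 (Pearson r = 0.937 on the log2 scale), Cbr1 (r = 0.915), Ets2 (r = 0.896), Epb4.1l3 (r = 0.896) and Rbfa (r = 0.895). Cbr1 and Ets2 lie in the same duplicated segment. Of the members, Ppp3cb (r = 0.745, rank 934), Ppp3ca (r = 0.739, rank 1038) and Rcan3 (r = 0.649, rank 2612) came nearest, while Nfat5 ran opposite (r = −0.766). These values describe 14 libraries that share the pairs and the tissue markers given above, and they are not tested.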

How the data were processed

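The authors mapped the reads with Bowtie and TopHat to mm10, assembled transcripts with Cufflinks and merged them over all samples (per the labels and the methods; versions are not given in the sources used here). The deposited gene table holds signal values, fragments per assembled locus over 1 size factor per library; 1 fragment is worth 0.816 to 1.21 units, and 100% of the nonzero values were whole multiples of it within 0.1 fragments. The deposited isoform signal values are estimated shares of them. The libraries were stranded, but the strand setting of the counting is not given, so antisense transcripts at Ppp3ca, Ppp3cb and Nfatc4 may share reads with them. The methods also describe the removal of assembled transcripts absent from the Gencode annotation, antisense genes among them. The methods describe total RNA and the labels polyA RNA.

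A locus was named from the map locus whose isoforms add up to the same values in each of the 14 libraries. Carriers were compared with their own littermates on log2(value + 1), mean of at least 10, in limma 3.58.1 (R 4.3.3) with a trend, Benjamini-Hochberg adjusted at 0.05; the interaction used 1 fit of 4 groups. Single values were tested by exact two-sided permutation (SciPy 1.17.1). Alternatives (other pseudocounts, filters, scalings, count tests on the recovered fragments with DESeq2 1.42.0 and edgeR 4.0.16, a replicate block, each library left out, nearly alike littermates averaged) are given in the closing section. Named were all members, the further subunits and Nfat5, per list the genes with an unadjusted p under 0.05 and both extremes, and the 5 genes most like Rcan1. The members and lists were chosen with earlier results of these data known. Coordinates are from GENCODE vM21 (GRCm38).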

Additional observations from a re-analysis of the deposited data

Results flagged for a closer look

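Of 30 sets of 4 libraries of the Dp(16)1Yey/+ comparison, 3 held a library far from the other libraries of its group by Dixon's test. All were carriers. Chance gives about 1 in 20 for sets of independent libraries, but the littermates stood as a pair of pairs. Their Ppp3ca values, for example, were 2553, 2396, 4055 and 4050. In a set paired like this no single library stands far from the rest. The rate therefore does not hold for all 30 sets, and the flags do not compare carriers with littermates. Ppp3ca stood at 4284 normalized fragments in Dp(16)1Yey/+ replicate 0, against 2226 to 2240 in the other carriers, and Ppp3r1 at 2543 in the same library, against 1879 to 1912. That library also had the highest neuron marker sum of its group (115671, against 79274 to 90661), and the part of the neuron markers was not tested. Nfatc2 stood at 56.4 in Dp(16)1Yey/+ replicate 1, against 21.1 to 25.5, in the library with the highest erythroid and muscle marker sums of its group; the part of those markers was not tested.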

How the results depend on the processing

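No alternative brought a member past an adjusted p of 0.05; of 69 log2 differences followed (31 of members or their isoforms), 46 kept their sign throughout, and Tmem50b (0.85) and Dnajc28 (0.76) passed with DESeq2 only. Counts of calls moved more. In 189N3 the loci called numbered 3 with median-ratio size factors, 72 with a replicate block, 15 with DESeq2, and 0 to 28 with 1 library left out (28 without littermate replicate 1). In Dp(16)1Yey/+ they numbered 8 with DESeq2 and 0 to 3 with 1 library left out (3 without carrier replicate 1), and in the interaction 0 to 1. Isoforms called in 189N3 numbered 3 with a pseudocount of 0.1, 14 with 10, 174 with no filter, 0 with a mean of at least 100, 0 with a replicate block and 0 to 12 with 1 library left out; in Dp(16)1Yey/+ they numbered 45, 0, 0 and 4 to 43 with no filter, with the mean of 100, with the block and with 1 library left out. The cause was not tested. Same-numbered samples did not deviate together (correlations of at most 0.011), so the block shares only a number; it changed no call of a member. Under quantile normalization the sign turned for Rcan1 (−0.035), Nfatc1 (0.0396), Nfatc2 (0.0016) and Nfatc3 (−0.036). Under median-ratio size factors the sign turned for Nfatc1 (0.013), Ppp3cc (0.016) and Nfat5 (0.0044). With DESeq2 on recovered fragments the sign turned for Nfatc1 (0.00396), Nfatc2 (0.038) and Ppp3cc (0.049), all in 189N3. With 1 library left out, the sign turned in 189N3 for Rcan1 (−0.35 to 0.38), Rcan2 (−0.25 to 0.13), Rcan3 (−0.058 to 0.47), Nfatc1 (−0.13 to 0.041), Nfatc2 (−0.41 to 0.11), Nfatc3 (−0.13 to 0.098), Ppp3ca (−0.14 to 0.40), Ppp3cb (−0.095 to 0.46), Ppp3cc (−0.30 to 0.12), Nfat5 (−0.16 to 0.10), Akap5 (−0.19 to 0.43), Bad (−0.35 to 0.11), Bdnf (−0.30 to 0.19), Lrrk2 (−0.28 to 0.12) and Ppia (−0.31 to 0.14). With 1 library left out, the sign turned in Dp(16)1Yey/+ for Nfatc1 (−0.16 to 0.051), Nfatc4 (−0.10 to 0.16), Ppp3cb (−0.19 to 0.068), Nfat5 (−0.048 to 0.15), Clic6 (−0.60 to 0.20), Itpr1 (−0.21 to 0.31) and Ppia (−0.053 to 0.27). With 1 library left out, the sign turned in the interaction for Rcan1 (−0.021 to 0.71). The isoform share of Rcan1 in Dp(16)1Yey/+ ranged from −5.07 to 8.26 percentage points with 1 library left out. The Rcan1 to calcineurin ratio kept its direction in all settings run; its pairing with averaged littermates on Ppp3ca alone was added after the values were seen. Nfatc1 rests on 27 to 66 fragments per library and Nfatc2 on 21 to 48.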
